A study of Canis lupus familiaris with 4 samples.

Results

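The miR-15/16 family was examined in small RNA sequencing of extracellular vesicles (EVs) from 2 canine mammary carcinoma cell lines. Its members were taken by name from the deposited miRNA table, as the rows cfa-mir-15a, cfa-mir-15b, cfa-mir-16-1, cfa-mir-16-2, cfa-mir-195, cfa-mir-497, cfa-mir-424 and cfa-mir-503, here written miR-15a and so on. The rule found 8 of 673 rows. miR-16 has a row for each of its genes, and their values were equal in 3 libraries and differed by 0.571% in the other one. They were counted once, which left 7 miRNAs. The cell lines, CHMp and CHMm, came from the same dog, CHMp from the primary tumor and CHMm from a metastasis. Their EVs are called pTDEs and mTDEs, for primary and metastatic tumor-derived EVs. Both lines were grown in RPMI medium with fetal bovine serum and gentamicin and then moved to medium without serum and antibiotics, from which the EVs were isolated by ultrafiltration and ultracentrifugation. Each group has 2 libraries, numbered replicate 1 and 2. The study calls them biological replicates, but neither it nor the labels say whether they were separate cultures, so p-values measure only the spread between these libraries. Each group stands for 1 cell line, and the metastatic origin cannot be told apart from any other difference between the lines.

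miRNAs bind messenger RNAs mainly through the seed, a short stretch near their 5′ end, and the members of this family share it in whole or nearly so. miR-503 is known to differ from the others at the last base of the seed, and its sequence was not used here. Textbook targets of the family are the anti-apoptotic gene BCL2 and cell cycle genes such as CCND1, CCNE1, CDK6, WEE1 and CHEK1, and the family is known for restraining proliferation. Its members lie in clusters that are transcribed together: miR-15a with miR-16-1, miR-15b with miR-16-2, miR-195 with miR-497, and miR-424 with miR-503. In the RefSeq annotation of the dog assembly UU_Cfam_GSD_1.0, MIR15A and MIR16-1 were adjacent on chromosome 22, and MIR15B and MIR16-2 lay together on chromosome 34 between SMC4 and TRIM59. MIR195 and MIR497 lay on chromosome 5 between C5H17orf49 and BCL6B. MIR503 and MIR424 lay on chromosome X beside MIR542. The mature miR-16 of both its clusters is the same molecule, so its reads cannot be assigned to either locus.

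The sequences of 3 members are shown because they hold the seed common to these members and show where they part. They were read as the reverse complement of miRNA candidates that miRDeep2 proposed in these libraries on CanFam3.1, and were assigned to a member by the seed, the chromosome and the known mature form. Capitals mark the seed, bases 2 to 8 counted from the 5′ end.
miR-16: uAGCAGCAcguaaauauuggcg
miR-195: uAGCAGCAcagaaauauuggca
miR-497: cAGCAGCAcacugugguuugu

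The candidate precursors lay at chr34:26460807-26460869 on the minus strand for miR-16 (the miR-16-2 locus), at chr5:32045454-32045510 on the plus strand for miR-195, and at chr5:32045768-32045825 on the plus strand for miR-497. All 3 candidates were listed in the orientation opposite to the mature miRNA. They were picked for holding the seed in their reverse complement, so the shared seed and this orientation follow from the choice. miR-16 and miR-195 were identical at 19 of 22 bases, including the first 9, and differed by G10A, U11G and G22A (miR-16 first). miR-497 was 1 base shorter and shared 11 of 21 bases with miR-16 and 12 of 21 with miR-195. miR-103, a relative outside the family, holds the same 7 letters shifted by 1 base, at bases 1 to 7. It is shown with those letters in capitals, since its level was close to that of the abundant members.
miR-103: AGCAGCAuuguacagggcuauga

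Summed over all rows, the 4 libraries held about 6296084 and 5053231 reads in pTDEs and 3457438 and 2330430 in mTDEs, as recovered from the deposited values. These sums count a miRNA with several rows, such as miR-16, once per row. Levels are given in CPM, the reads of a miRNA scaled to a library of 1000000 reads, recovered from the deposited score. CPM is not scaled by length, the 3 printed members differ in length by at most 1 base, and the different ligation of miRNAs during library preparation was not tested. A value of 0 is 0 reads, which allows a level of up to 3 reads, or 0.476 and 0.594 CPM in pTDEs and 0.868 and 1.29 CPM in mTDEs, limits that cover counting error only. The mTDE replicate 1 library stood apart in the number of gaps: of 241 rows with at least 10 reads in each of the other libraries, 21 were at 0 in it, against 4 or 5 rows in each other library. Among these 21 were miR-424 and miR-195. In these EV libraries, fewer EVs that carry a miRNA and fewer copies per EV cannot be told apart. Of 6 epithelial miRNAs, 4 (miR-200a, miR-200b, miR-141 and miR-429) were at 0 in both pTDE libraries, and the list summed to 35.4 and 37.2 CPM in pTDEs against 22768 and 23878 CPM in mTDEs, so that epithelial markers were nearly absent from pTDEs.

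The family was carried in both kinds of EVs almost entirely as miR-16 and miR-15b. Together these made up 96.3% and 98.5% of the summed family CPM in pTDEs and 98.2% and 98.5% in mTDEs. miR-15a and miR-503 were found in every library at intermediate levels (16.7 to 182 CPM), and miR-424, miR-195 and miR-497 in 3 libraries at up to 35.2 CPM. No member differed between pTDEs and mTDEs at an adjusted p under 0.05 (limma), and the intervals left room for changes of several fold either way in most of them. The summed family level was 8845 and 8441 CPM in pTDEs and 3867 and 8578 CPM in mTDEs. Only mTDE replicate 1 was low, mTDE replicate 2 lay between the pTDE libraries, and the groups overlapped. The means were 8643 ± 286 and 6223 ± 3331 CPM (SD, n = 2 each), a difference of 0.59 on the log2 scale for which no test was made because the sum is over chosen members. This difference was 0.01 without mTDE replicate 1 and 1.16 without mTDE replicate 2.

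**Figure D1:**
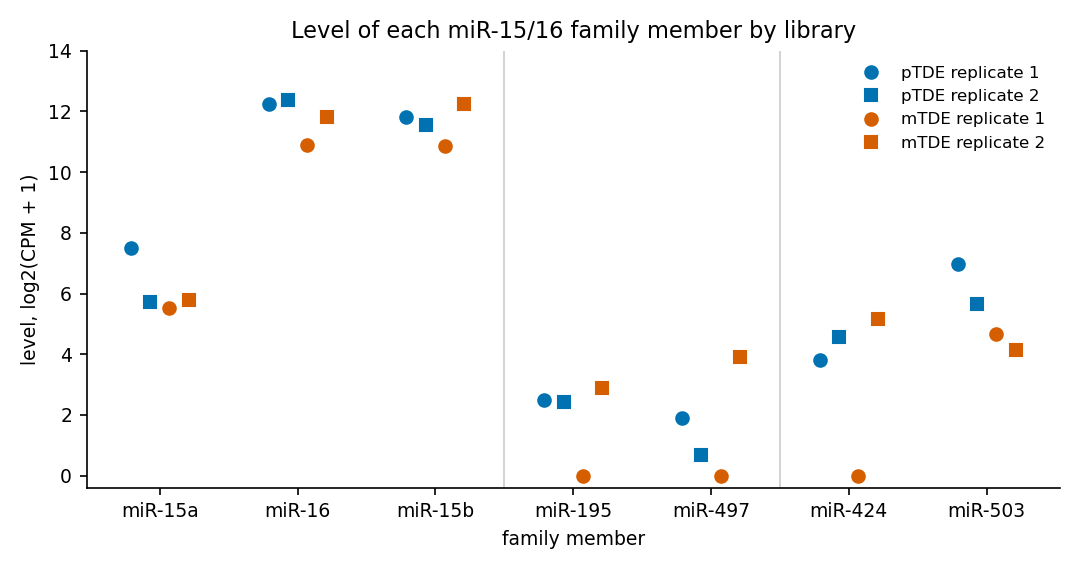
Level of the 7 family members in each library, as log2(CPM + 1), with a point for each library (blue for pTDEs, orange for mTDEs, circles for replicate 1, squares for replicate 2). miR-16 and miR-15b sit highest in all 4 libraries, and miR-195, miR-497 and miR-424 are at 0 in mTDE replicate 1.

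miR-16 (cfa-mir-16-1), the most abundant member in pTDEs and a miRNA found in nearly all tissues, was measured at 4883 and 5308 CPM in pTDEs and at 1919 and 3638 CPM in mTDEs. Both pTDE libraries were above both mTDE libraries. It ranked 27th by level in both pTDE libraries, and ranked 50 and 43 in mTDEs, among all rows with copies of a miRNA included. The means were 5095 ± 301 and 2779 ± 1216 CPM (SD, n = 2 each), a 1.83-fold difference. On the log2(CPM + 1) scale miR-16 was higher in pTDEs by 0.95 with a standard error of 0.44 and a 95% interval from -0.25 to 2.14, and limma gave an adjusted p of 0.32. The difference was 0.48 without mTDE replicate 1. The mTDE replicates differed 1.90-fold from each other, as much as the group means did.

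miR-15b (cfa-mir-15b), the partner of miR-16-2, was measured at 3634 and 3004 CPM in pTDEs and at 1879 and 4813 CPM in mTDEs. The mTDE libraries were the lowest and the highest, and the groups overlapped. The means were nearly equal, 3319 ± 445 and 3346 ± 2075 CPM (SD, n = 2 each). The log2 fold change of pTDEs over mTDEs was 0.14, with a standard error of 0.57 and an interval from -1.38 to 1.65 (adjusted p = 0.91, limma). Its sign depended on the libraries used: the value was -0.54 without mTDE replicate 1, -0.0015 without pTDE replicate 1 and 0.81 without mTDE replicate 2.

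miR-15a (cfa-mir-15a), the partner of miR-16-1, was far lower, at 182 and 52.0 CPM in pTDEs and 44.8 and 54.5 CPM in mTDEs. It was high only in pTDE replicate 1, which held about 1145 reads of it, and the other pTDE library lay between the mTDE libraries. The pTDE replicates differed 3.50-fold from each other. The log2 fold change was 0.97, with a standard error of 0.91 and an interval from -1.46 to 3.40 (adjusted p = 0.60, limma). Without pTDE replicate 1 it was 0.07.

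miR-503 (cfa-mir-503), the better measured member of the X-linked cluster, was found at 126 and 49.3 CPM in pTDEs and 24.6 and 16.7 CPM in mTDEs, from about 793, 249, 85 and 39 reads. Both pTDE libraries were above both mTDE libraries. The means of 87.6 ± 54.2 and 20.7 ± 5.55 CPM (SD, n = 2 each) differed 4.24-fold, the largest ratio of means in the direction of pTDEs among the 7 members. The log2 fold change was 1.91, with a standard error of 0.90 and an interval from -0.51 to 4.32, and limma gave an adjusted p of 0.32. Leaving out each library in turn gave values from 1.24 to 2.58.

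miR-424 (cfa-mir-424), its cluster partner, was at 13.2 and 22.9 CPM in pTDEs and at 0 and 35.2 CPM in mTDEs. It was at 0 in mTDE replicate 1 and highest in mTDE replicate 2, so the groups overlapped. At the level of mTDE replicate 2, 122 reads would be expected in mTDE replicate 1, where 0 were found, a gap between replicates larger than counting error at this depth. Its log2 fold change was 1.62, with a standard error of 1.93 and an interval from -3.56 to 6.79 (adjusted p = 0.66, limma). It ran from -0.97 without mTDE replicate 1 to 4.20 without mTDE replicate 2, and was 3.22 with a pseudocount of 0.1 CPM and 0.67 with 5 CPM.

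miR-195 (cfa-mir-195) was low, at 4.61 and 4.35 CPM in pTDEs and 0 and 6.43 CPM in mTDEs, from 29, 22, 0 and 15 reads. The groups overlapped, since mTDE replicate 2 was the highest library and mTDE replicate 1 had none of 22.2 reads expected at that level. The log2 fold change was 1.01, with a standard error of 1.12 and an interval from -2.0 to 4.02 (adjusted p = 0.65, limma). It was -0.44 without mTDE replicate 1 and 2.45 without mTDE replicate 2, and the pseudocount moved it to 2.5 (0.1 CPM) and 0.33 (5 CPM).

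miR-497 (cfa-mir-497), transcribed with miR-195, was at 2.70 and 0.590 CPM in pTDEs and 0 and 14.2 CPM in mTDEs. The value of pTDE replicate 2 rested on 3 reads, and mTDE replicate 2, with 33 reads, was the highest. The groups overlapped. Its log2 fold change was -0.68, with a standard error of 1.47 and an interval from -4.63 to 3.26 (adjusted p = 0.81, limma), and it was 1.28 without mTDE replicate 2. At the level of mTDE replicate 2, 49.0 reads would be expected in mTDE replicate 1, where 0 were found, so the mTDE replicates differed by more than counting error.

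All 7 members passed the filter of 2 libraries above 0 in a cell line, miR-424, miR-195 and miR-497 only through pTDEs, so that their number carries no weight. Of the 326 rows tested, limma called 6 at an adjusted p under 0.05 (1.84%), all lower in pTDEs, and 0 of 7 members. At an unadjusted p under 0.05 it called 64 rows (19.6%), 33 of them higher in pTDEs (10.1%) and 31 lower (9.51%), and again 0 of 7 members. miR-16 and miR-503 came nearest, with unadjusted p of 0.094 and 0.096 (limma). The estimates were above 0 for 6 of 7 members, against 49.1% of all rows, with a median log2 fold change of 0.97 against -0.03 for all rows. The members share libraries and clusters, and the sign of miR-15b, miR-195 and miR-424 turned when mTDE replicate 1 was left out, so no more is read from this count. The groups did not overlap, with pTDEs higher, for 2 members, miR-16 and miR-503, where 26.1% of all rows did so. No member was lower in pTDEs without overlap, where 27.3% of all rows were. Ranked by log2 fold change from the highest in pTDEs, miR-503 was 34th of 326, miR-424 was 46th, miR-195, miR-15a and miR-16 ranked 79, 80 and 81, miR-15b ranked 147 and miR-497 ranked 225.

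**Figure D2:**
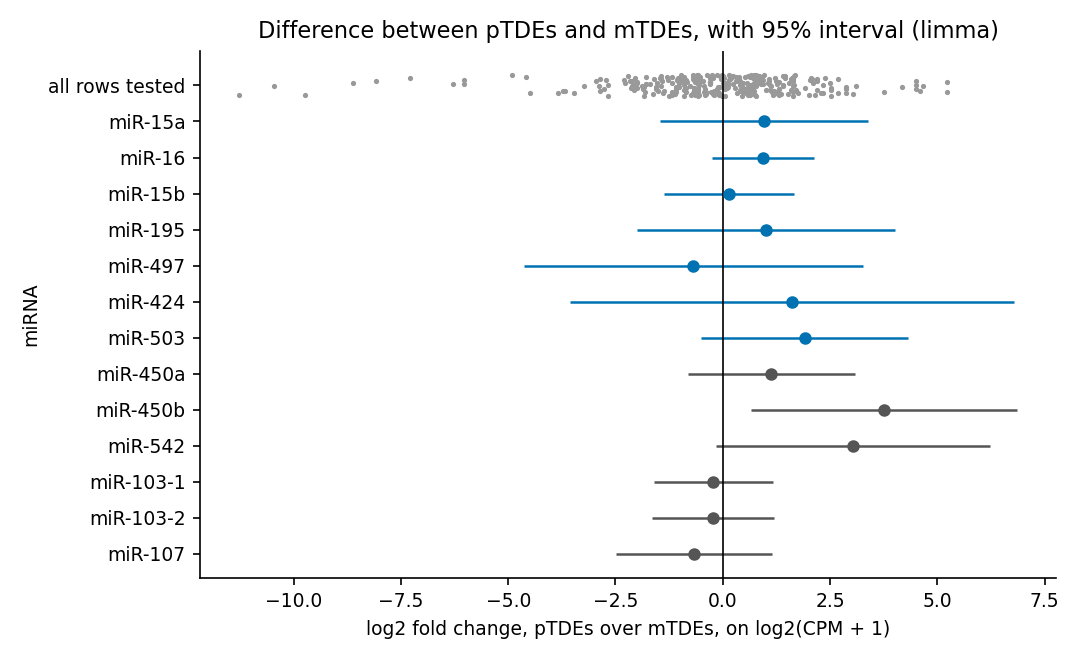
Difference between pTDEs and mTDEs on the log2(CPM + 1) scale, with the limma 95% interval as a line, for the 7 family members (blue) and for related miRNAs (dark gray). Light gray points are all 326 rows tested. All 7 family intervals cross 0, and of the lines shown only that of miR-450b, from 0.65 to 6.86, does not.

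The composition within a library was then compared, since a ratio of abundant members in the same library hardly depends on its total; for low members the added 1 CPM enters it. For 5 pairs of members the log2 ratio of CPM + 1 was taken in each library and compared by a two-sided exact permutation test, which with 2 against 2 libraries cannot go below p = 0.333. miR-15b to miR-16 was -0.43 and -0.82 in pTDEs and -0.04 and 0.40 in mTDE replicates 1 and 2. miR-15b thus stood at 74.4% and 56.6% of miR-16 in pTDEs, and at 97.3% and 132% in mTDEs. The groups did not overlap, with means of -0.62 ± 0.28 and 0.18 ± 0.31 (SD, n = 2 each), and the difference of -0.81 had an exact p of 0.333 (0.833 after Benjamini-Hochberg adjustment over the 5 pairs). The order of the abundant members differed accordingly, with miR-16 above miR-15b in both pTDE libraries, nearly level with it in mTDE replicate 1 and below it in mTDE replicate 2. Because miR-16 is also made from the miR-15a cluster, this ratio is not that of 1 locus.

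The ratio of miR-15a to miR-16 was -4.74 and -6.65 in pTDEs, against -5.39 and -6.04 in mTDEs, and the groups differed by 0.02 (exact permutation p = 1). miR-15a was between 0.980% and 3.73% of miR-16, both extremes being pTDE libraries. The ratio of miR-15a to miR-15b was -4.31 and -5.82 in pTDEs and -5.36 and -6.44 in mTDEs, overlapping groups with a difference of 0.83 (exact permutation p = 0.667) that was 0.07 without pTDE replicate 1. miR-195 to miR-497 was 0.60 and 1.75 in pTDEs against 0 and -1.03 in mTDEs, a difference of 1.69 with an exact permutation p of 0.333, but in mTDE replicate 1 both were at 0 and the ratio there is that of the pseudocounts. miR-424 to miR-503 varied most between replicates, at -3.16 and -1.07 in pTDEs against -4.68 and 1.03 in mTDEs, a difference of -0.29 with an exact permutation p of 1, which was -3.14 without mTDE replicate 1 and 2.56 without mTDE replicate 2. For miR-424 and miR-503 the ratio thus differed more between replicates of a cell line than between the group means.

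**Figure D3:**
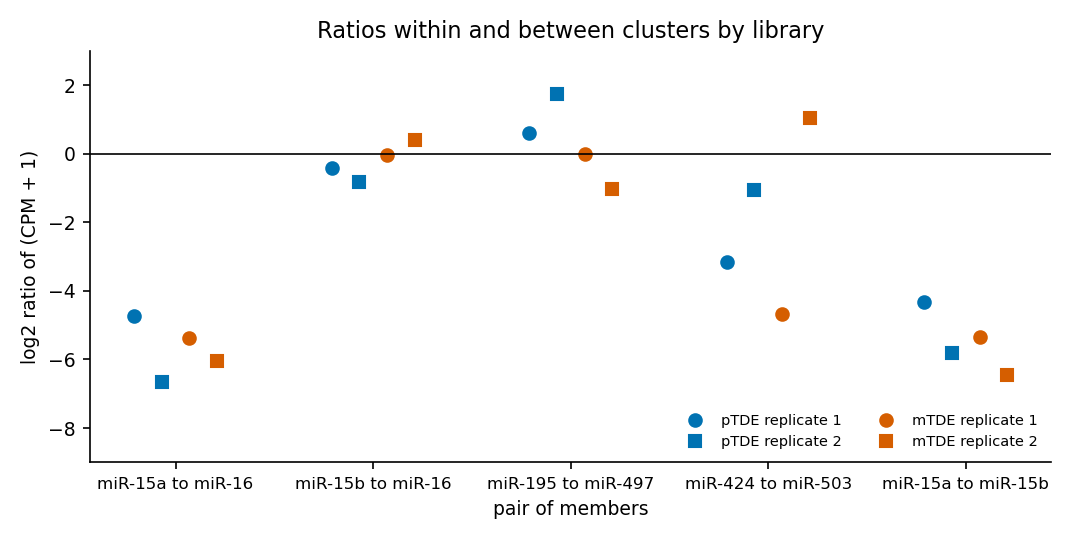
Log2 ratio of CPM + 1 for 5 pairs of members in each library, colors and symbols as in the plot of levels, with the line at 0 marking equal levels. The pTDE and mTDE points are separate for miR-15b to miR-16 and for miR-195 to miR-497 and are mixed for the other pairs.

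The X-linked neighbors of miR-424 and miR-503 were compared, because they share their chromosomal region. All 3 measured neighbors were higher in pTDEs without overlap, where 26.1% of all rows were. miR-542, at 0 in mTDE replicate 2, passed the row filter only through pTDEs, so its place in this count carries no weight. miR-450b was at 242 CPM in pTDE replicate 1, at 1.75 times that level in pTDE replicate 2, and at 61.0 and 8.15 CPM in mTDEs. Its log2 fold change was 3.75 with a standard error of 1.16 and an interval from 0.65 to 6.86 (adjusted p = 0.17, limma), and without each library in turn it stayed between 2.37 and 5.14. miR-450a was at 121 and 131 CPM in pTDEs and 39.6 and 82.0 CPM in mTDEs, a log2 fold change of 1.13 ± 0.73 (SE, adjusted p = 0.42, limma) that was 0.61 without mTDE replicate 1. miR-542 was at 16.4 and 25.3 CPM in pTDEs and 5.78 and 0 CPM in mTDEs, a log2 fold change of 3.04 ± 1.19 (SE, adjusted p = 0.26, limma) that was 1.66 without mTDE replicate 2. In the limma fit the adjusted p of all 3 stayed above 0.05, and only miR-450b had an unadjusted limma p under it (0.028). miR-503 had the same order of groups as these neighbors, whereas miR-424 was highest in mTDE replicate 2, the library in which miR-450b and miR-542 were lowest.

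The relatives with the shifted seed had estimates below 0, so not in the direction of pTDEs. miR-103 has 2 rows, which were nearly equal in each library. miR-103-1 was at 3624 and 2941 CPM in pTDEs and 2511 and 5738 CPM in mTDEs, a log2 fold change of -0.22 ± 0.52 (SE, adjusted p = 0.83, limma), whose sign turned under another scaling. In pTDEs its levels were near those of miR-15b, and mTDE replicate 2 was likewise the highest. miR-107 was at 67.4 and 73.6 CPM in pTDEs and 87.4 and 146 CPM in mTDEs, a log2 fold change of -0.67 ± 0.68 (SE, adjusted p = 0.61, limma), with the groups not overlapping. Of all rows, 27.3% were likewise lower in pTDEs without overlap.

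miR-16 is also abundant in blood cells, so blood miRNAs were read in the same libraries, together with the liver miRNA miR-122. Of the 7 listed, 6 were found in every library and miR-144 was at 0 in all 4. Their sum was 419 and 992 CPM in pTDEs and 1070 and 3588 CPM in mTDEs. miR-451, the defining miRNA of red blood cells, was at 123 and 465 CPM in pTDEs and 138 and 1423 CPM in mTDEs. miR-486-3p, also of red blood cells, was at 110 and 349 CPM in pTDEs and 486 and 1397 CPM in mTDEs, and miR-122 at 158 and 98.5 CPM against 364 and 570 CPM. All 3 were highest in mTDE replicate 2, and none of the 6 tested had an adjusted p under 0.05 (miR-122 had an unadjusted p under that value, lower in pTDEs, limma). miR-16 was 39.8 and 11.4 times the level of miR-451 in pTDEs, and 13.9 and 2.56 times its level in mTDEs. In mTDE replicate 2, where the list was higher than in mTDE replicate 1, miR-16, miR-15a, miR-15b, miR-424, miR-195 and miR-497 were higher too and miR-503 was lower. In pTDE replicate 2, where the list was higher than in pTDE replicate 1, miR-16 and miR-424 were higher and miR-15a, miR-15b, miR-195, miR-497 and miR-503 were lower. miR-16 was highest in pTDEs, where the list was lowest. The part of such RNA in the levels of the family was not tested.

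**Figure D4:**
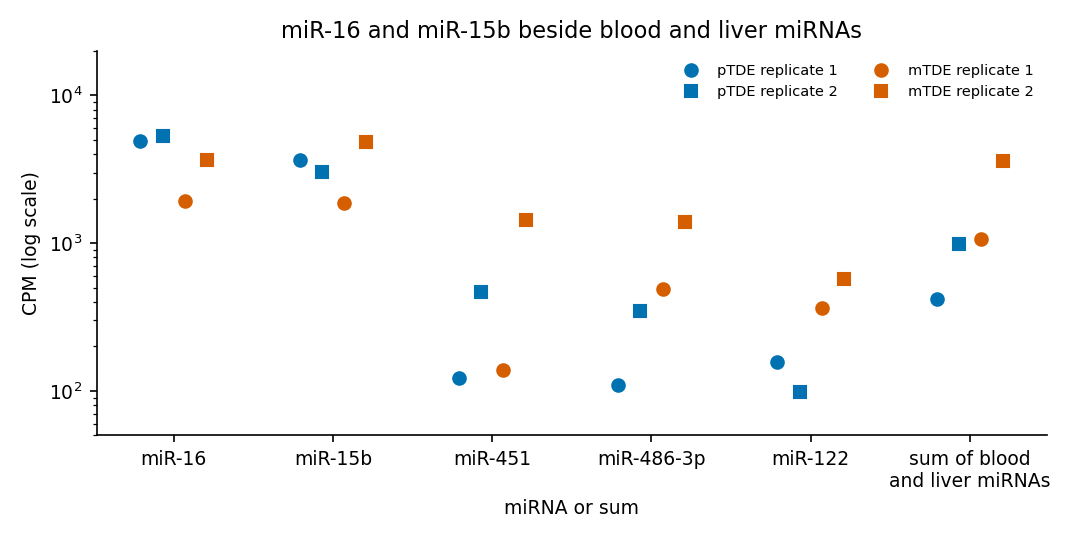
CPM on a log axis in each library for miR-16, miR-15b, 3 miRNAs of blood and liver and the sum of the blood and liver list, colors and symbols as in the plot of levels. mTDE replicate 2 is highest for the blood and liver miRNAs and for miR-15b, and the pTDE libraries are highest for miR-16.

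The spread between replicates differed among the members. On the log2 scale the median difference between the pTDE libraries was 0.62 over 267 rows that had 10 reads or more in each, and 0.51 over the 6 family members among them. For mTDEs the medians were 0.82 over 240 rows and 0.73 over the 4 family members with 10 reads or more in each. The other members, miR-424, miR-195 and miR-497, were left out of these mTDE medians because they were at 0 in mTDE replicate 1, and their mTDE libraries differed by 5.18, 2.89 and 3.92 on the log2(CPM + 1) scale. The miRNAs whose pattern was most like that of miR-16 were found by the Euclidean distance of their centered log2(CPM + 1) over the 4 libraries, among 172 known miRNAs outside the family with a mean of at least 10 CPM. miR-374a was nearest, at a distance of 0.337, with 191 and 233 CPM in pTDEs and 98.9 and 186 CPM in mTDEs. miR-380 followed at 0.357, with 49.7 and 52.9 CPM in pTDEs and 22.6 and 48.9 CPM in mTDEs. miR-132 came next at 0.365, with 337 and 330 CPM in pTDEs and 126 and 316 CPM in mTDEs. All 3 were lowest in mTDE replicate 1, as miR-16 was, while the median of the candidates was 1.79. The family members were farther from miR-16 than these 3, with miR-15b at 0.910, miR-195 at 1.40, miR-15a at 1.42, miR-503 at 1.74, miR-497 at 2.84 and miR-424 at 3.11. Over only 4 libraries these distances are a description.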

How the data were processed

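Small RNA of EVs was sequenced in 2 CHMp and 2 CHMm libraries, grouped by their labels, on HiSeq and NovaSeq instruments (which library ran on which is not given in the sources used here). The authors trimmed reads with cutadapt, kept lengths of 22 to 30 bases, checked them with FastQC, merged forward and reverse reads, and quantified known and predicted miRNAs (score cutoff 4) with miRDeep2 on CanFam3.1; versions are not given in the sources used here. Of the 3 family candidates shown, 1 (miR-497, 21 bases) is shorter than this minimum, and the effect of the length filter and of merging both orientations was not tested. The deposited values are described as CPM, and each library of them totals about 1000000, as CPM would. They are treated as a score, since their low values were unevenly spaced whole numbers. The table's columns with the authors' own comparison (fold changes and p-values from edgeR) were not used.

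CPM were recovered as 2 to the power of (score/s), minus 1, with s solved per library so that it totals 1000000. Reads are CPM divided by the worth of 1 read, from 0.159 to 0.429 CPM, and are resolved as whole numbers up to 110 CPM in pTDE replicate 1 and up to 262 CPM in mTDE replicate 2. Because the values are not counts, limma 3.58.1 (R 4.3.3) was fitted to log2(CPM + 1) with a mean-variance trend on the 326 rows found in each library of CHMp, of CHMm or of both, and p-values were adjusted over all of them by Benjamini-Hochberg. Fold changes on this scale understate the change of low miRNAs. The variance of a miRNA was moderated by the others with a prior of 2.4 degrees of freedom. The fit was run on simulated data with changes larger than the reported log2 fold change of any member, so its power for these members was not tested. Other steps used scipy 1.17.1, pandas 2.3.3 and numpy 2.4.6 under Python 3.11.15.

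Named miRNAs are the family by its name rule, the fixed lists (miR-103/107, X-linked neighbors, blood and liver, epithelium) and the 3 nearest to miR-16. The members and lists were chosen with earlier results of these data known. Alternatives were median-ratio size factors, the deposited values read directly as CPM, pseudocounts of 0.1 and 5 CPM, a looser and a stricter row filter, no trend, voom, equal rows counted once, known miRNAs only, a replicate block and leaving out each library. RefSeq (UU_Cfam_GSD_1.0) was used only for gene names and neighbors, since its build differs from CanFam3.1.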

Additional observations from a re-analysis of the deposited data

How the results depend on the processing

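No family member reached an adjusted p under 0.05 in any of 15 settings (limma), with a lowest value of 0.14, and the sign of the log2 fold change turned in 7 fits of members and was kept in the other 96. The number of members with an unadjusted p under 0.05, higher in pTDEs, was 0 as reported, 2 with the deposited values taken as CPM (miR-503 and miR-16), 1 with median-ratio size factors (miR-16) and 0 to 3 when each library was left out, the 3 (miR-424, miR-195 and miR-16) without mTDE replicate 2. With median-ratio size factors the median over all rows shifted by 0.25 (log2). The sign of miR-497 turned to 0.22 with a pseudocount of 0.1 CPM and to 3.77 with the deposited values taken as CPM. On the deposited values the log2 fold change fell to 0.63 for miR-503, 0.33 for miR-15a, 1.05 for miR-450b and 0.38 for miR-450a. It rose to 5.46 for miR-424, 5.11 for miR-195 and 5.89 for miR-542. The log2 fold change of miR-103-1 turned to 0.092 and that of miR-103-2 to 0.091 on the deposited values, and to 0.024 and 0.013 with median-ratio size factors. Without each library in turn, the log2 fold change ran from -0.97 to 4.20 for miR-424, from -0.44 to 2.45 for miR-195, from -2.65 to 1.28 for miR-497, from -0.54 to 0.81 for miR-15b, from -0.81 to 0.38 for miR-103-1 and from -0.84 to 0.38 for miR-103-2. The difference of the summed family ran from 0.01 to 1.16. For miR-16 the log2 fold change ran from 0.48 to 1.41 and over the other alternatives from 0.23 to 1.19. The difference of log2 ratios moved to -0.10 for miR-15b to miR-16 and to 4.83 for miR-424 to miR-503 with the deposited values, and to 0.90 for miR-195 to miR-497 with a pseudocount of 5 CPM (2.28 with 0.1 CPM). Without each library in turn it ran from -3.14 to 2.56 for miR-424 to miR-503, from -0.93 to 0.97 for miR-15a to miR-16, from 0.07 to 1.59 for miR-15a to miR-15b, from 1.11 to 2.27 for miR-195 to miR-497 and from -1.03 to -0.58 for miR-15b to miR-16, and the log2 fold change of miR-542 ran from 1.66 to 4.42 and that of miR-450a from 0.61 to 1.65. miR-542 was 1.79 with a pseudocount of 5 CPM and 4.46 with voom, and miR-424 to miR-503 was 1.27 with a pseudocount of 0.1 CPM. The causes were not tested. miR-195 and miR-497 gave no value under the filter of a mean of 10 CPM. With the replicate block 0 members were called, at adjusted p of 0.35 for miR-16 and 0.36 for miR-503 (limma). Over the 326 rows tested, the differences between replicate 1 and replicate 2 correlated at 0.15 between the cell lines. With only 2 pairs of libraries this cannot show whether a number marks a shared batch, so the block was not used for the reported values. Leaving out a library leaves a lone one in its group, assumed to vary like the other group. The disagreement of the mTDE replicates limits miR-424, miR-195 and miR-497, and 2 libraries per group limit every comparison.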

Other observations

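The seed, read from the candidate that miRDeep2 matched to the seed of human miR-15a, was searched among predicted miRNAs. Of 165 predicted rows with a sequence, 0 held it at bases 2 to 8, in either orientation. Among 1045 candidates of miRDeep2, 3 held the seed at bases 2 to 8 of the reverse complement (those shown for miR-16, miR-195 and miR-497), 2 held the shifted letters of miR-103 at bases 1 to 7 of the reverse complement, and 1 held the seed in the listed orientation. That 1 is the candidate from which the seed was read. The candidates of miR-103 lay at chr4:43182874-43182937 on the minus strand and at chr24:17468361-17468424 on the plus strand of CanFam3.1.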
